A study of Mus musculus with 8 samples.

Results

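Hydrogen peroxide treatment was set against no treatment in nuclear RNA of NIH3T3 cells, an established line of mouse embryo fibroblasts. The values of the oxidative stress and untreated columns were compared on every gene row that reached 0.5 RPKM (reads per kilobase of gene model, scaled to the size of the library) in at least 2 of these 4 libraries, which left 15314 of 48676 rows, or 31.5%. Oxidative stress was 0.2 mM H2O2 for 2 h; the other groups were untreated cells, heat shock at 44 °C for 2 h and osmotic stress with 200 mM KCl for 2 h, with 2 libraries in each of the 4 groups. All groups share the line, the serum-containing medium and the enrichment of nuclei before extraction, and no separate cultures are named for the replicates, so the p-values below measure only the spread between these libraries. The series title names readthrough of transcription under stress as its subject.

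Peroxide damages DNA, lipids and proteins. Cells respond through p53, which DNA damage stabilises and which drives arrest, repair and death genes together with its own inhibitor Mdm2. They also respond through NRF2, which peroxide frees from its adaptor Keap1 and which drives antioxidant genes, through stress kinases that act on AP-1 and other early genes, and through kinases of the initiation factor eIF2, whose output is carried by Atf4. Nuclear RNA holds much newly made and unspliced RNA, so it can move before cytoplasmic RNA does.

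Of the 15314 rows, 357 passed an adjusted p of 0.05 in limma, 2.33% of the rows tested. Of these, 306 were higher (2%) and 51 lower (0.333%) under oxidative stress, and 279 and 28 of them differed by at least 2-fold. The median log2 change of all rows was -0.11, and 9653 rows lay below 0 against 5661 above. A median-of-ratios scaling moved this median to -0.00484, so changes near it have no sure direction. Both oxidative stress values lay above both untreated values on 2706 rows (17.7%) and below both on 4748 (31%), so groups that do not overlap are common. A row's change had a median SE of 0.21 on the log2(RPKM + 0.5) scale, which is the scale of every log2 change given here and understates the change of rows with low values.

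Fewer rows were called when any single library was left out. Such fits have fewer residual degrees of freedom, also where the library left out is not part of the comparison. A lost call therefore does not show that it rested on the values of that library, which was not tested. Without untreated replicate 1, untreated replicate 2, oxidative stress replicate 1 or oxidative stress replicate 2, the fit called 19, 12, 19 and 312 rows. Fits that left out a heat shock library called 50, and those without an osmotic stress library 214 or 206. The 4 compared libraries alone gave 52 calls, 45 higher and 7 lower. Of the 53 called genes that the naming rule chose, no change reversed its direction under any of these fits. Where both treated values lie on one side of both untreated values, leaving out a library cannot reverse the change. The unchanged directions are therefore no support for the calls.

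Some libraries stood apart. Oxidative stress replicate 1 carried the larger response: 219 of the 306 called rises were larger in the table of replicate 1, against 34% of all members, and the median log2 change of the called rises was 1.52 there and 1.27 in the table of replicate 2. Osmotic stress replicate 1, which enters the comparison with untreated cells through the shared spread and is 1 of the 2 libraries of its group in the comparison with osmotic stress below, had an RPKM sum of 1943320 (503430 to 771673 in the other 7 libraries) and listed Malat1, an abundant nuclear long RNA, at 0. Read totals are not part of the tables, so the depth is unknown. From the RPKM that 1 fragment is worth on olfactory receptor rows, the oxidative stress libraries had 1 and 1.04 times the depth of the untreated library in the same table. Fibroblast markers were present: Vim was at 1589 and 979 RPKM untreated and 797 and 798 under oxidative stress, and Col1a2 at 659, 549, 436 and 357 in the same order. All 10 tested fibroblast markers had log2 changes below 0 and none was called. Fap was listed at 0 in all 4 libraries.

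**Figure D1:**
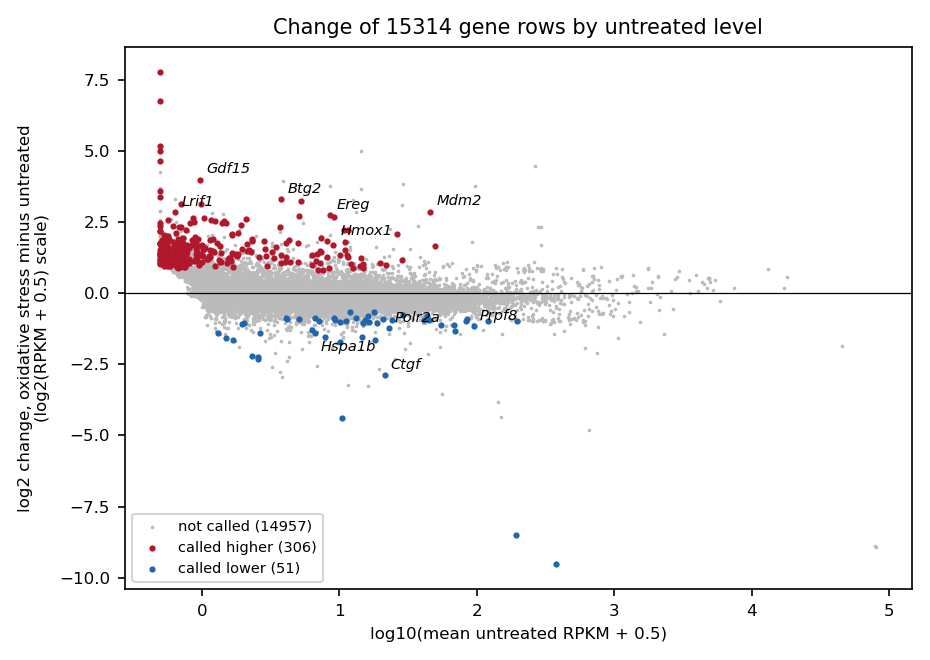
Log2 change between oxidative stress and untreated libraries of the 15314 rows (vertical axis, log2(RPKM + 0.5) scale) against the log10 of the mean untreated RPKM plus 0.5. Red points are the 306 rows called higher, which crowd at the low end, and blue points the 51 called lower.

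The calls differed in direction between low and high untreated levels. Of the 306 called rises, 225 had an untreated mean under 1 RPKM, where 2184 members lie. Such a row could pass the filter through its oxidative stress values alone, as 566 rows with both untreated libraries under 0.5 RPKM did, and those had to differ: a rise of such a row follows from the filter, and its call is no support for one. Of the called genes given below, Fos, Lin7b, Lrif1, Pecam1, Cdh1, Scarna9 and Snord14d are rows of this kind. In the same way 106 rows had both oxidative stress libraries under 0.5 RPKM, and a fall of such a row follows from the filter. Among the called falls given below, mt-Tc, Snord110 and Tcf9 entered in this way. At 10 RPKM and above, where 6358 members lie, 19 rows were called higher and 30 lower.

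The promoters of a few of the rises that were already expressed untreated are shown first, because they share the cAMP response element (CRE), the letters bound by CREB and ATF proteins. The CRE letters TGACGTCA were searched on both strands from 250 bases before to 50 bases after each gene's start in RefSeq promoters of GRCm38.p6. Of the 81 names called higher from at least 1 RPKM untreated, 51 had such a window, and 7 of these windows held a CRE (13.7%). A CRE stood in 3.93% of the 7689 member windows at that untreated level and in 2.03% of all 27025 genes with a window. The 7 genes were Amn1, Btg2, Dusp1, Maff, Ppp1r15a, Zfand2a and Zfp874b. Below, capitals mark the CRE in the windows of Btg2 (chr1:134079106-134079405, minus strand), Dusp1 (chr17:26508423-26508722, minus strand), Maff (chr15:79347270-79347569, plus strand) and Ppp1r15a (chr7:45526219-45526518, minus strand), each 5′ to 3′ on the gene's strand.
Btg2: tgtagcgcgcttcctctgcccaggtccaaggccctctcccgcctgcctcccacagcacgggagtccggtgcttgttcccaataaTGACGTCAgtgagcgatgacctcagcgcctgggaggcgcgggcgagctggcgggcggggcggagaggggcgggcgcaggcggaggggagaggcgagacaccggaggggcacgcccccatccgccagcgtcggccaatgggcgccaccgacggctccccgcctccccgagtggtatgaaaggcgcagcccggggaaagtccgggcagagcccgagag
Dusp1: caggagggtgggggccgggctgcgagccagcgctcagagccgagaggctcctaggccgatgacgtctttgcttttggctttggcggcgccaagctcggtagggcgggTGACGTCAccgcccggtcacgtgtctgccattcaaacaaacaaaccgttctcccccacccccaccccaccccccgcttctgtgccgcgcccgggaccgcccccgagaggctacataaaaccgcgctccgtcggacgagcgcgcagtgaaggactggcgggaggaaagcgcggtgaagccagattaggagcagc
Maff: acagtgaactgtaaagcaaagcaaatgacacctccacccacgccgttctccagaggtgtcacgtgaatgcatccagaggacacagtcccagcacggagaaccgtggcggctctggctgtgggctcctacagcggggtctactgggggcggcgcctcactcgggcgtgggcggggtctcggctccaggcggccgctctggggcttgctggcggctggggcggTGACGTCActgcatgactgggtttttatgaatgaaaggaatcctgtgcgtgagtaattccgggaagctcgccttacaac
Ppp1r15a: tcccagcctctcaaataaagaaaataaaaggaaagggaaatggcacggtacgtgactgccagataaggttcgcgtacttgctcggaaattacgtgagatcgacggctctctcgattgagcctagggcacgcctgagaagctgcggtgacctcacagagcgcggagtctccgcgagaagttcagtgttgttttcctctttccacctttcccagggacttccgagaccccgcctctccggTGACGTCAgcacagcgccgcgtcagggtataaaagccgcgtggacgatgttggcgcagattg

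The CRE began 166 bases before the start of Btg2, 143 before Dusp1, 29 before Maff and 12 before Ppp1r15a. Of the 27 called falls with a window, 0 held these letters. Over all member windows 3.86% did, so none among 27 is near that share. The AP-1 letters TGANTCA stood in 6 of the 51 windows (11.8%, against 6.15% of the member windows at that level) and the antioxidant response letters TGACNNNGC in 13 (25.5%, against 17.2%); the motifs may overlap each other. A full p53 element, a pair of half-sites up to 13 bases apart, was in 0 of the 51 windows and in 0.074% of all genes' windows. These are matches of letters in a short window and were not tested as binding sites.

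p53 targets for arrest, feedback and repair held the most calls of any list: 7 of 27 tested members rose, 25.9% against 2% of all rows, and none fell. The median log2 change of the list was 0.62, against -0.11 over all rows. Mdm2, the ubiquitin ligase that degrades p53, was at 53.5 and 36.8 RPKM untreated and at 408 and 262 under oxidative stress. Both treated libraries lay far above both untreated ones, and the log2 change was 2.87 ± 0.31 (SE, n = 2 a side; limma adjusted p = 0.0147). Btg2, an antiproliferative cofactor of mRNA decay whose promoter is shown above, was at 3.99 and 2.55 RPKM and rose to 46.7 and 28.1 (log2 change 3.31 ± 0.30, adjusted p = 0.00934). Trp53inp1, a stress protein that acts with p53, was at 4.38 and 4.88 RPKM untreated and at 28.9 and 37.0 treated. It is one of the rises that was larger in replicate 2 (log2 change 2.69 ± 0.22, adjusted p = 0.00795).

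Gadd45a, a DNA damage inducible growth arrest protein, rose from 8.17 and 12.5 RPKM to 51.9 and 45.1 (log2 change 2.20 ± 0.21, adjusted p = 0.0104). Sesn2, a sestrin that restrains mTORC1, rose from 9.16 and 6.05 to 34.9 and 22.0 RPKM (log2 change 1.83 ± 0.27, adjusted p = 0.0309). The groups did not overlap in either gene. The remaining calls, Plk3 and Polk, were named after their values were seen. Plk3, a stress-responsive kinase, had a log2 change of 1.33, and Polk, a translesion DNA polymerase, one of 1.38. Of these 7 calls, 1 was kept without untreated replicate 1, 1 without untreated replicate 2, 1 without oxidative stress replicate 1 and 6 without oxidative stress replicate 2. The fits without a heat shock library kept 4.

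Not all textbook targets passed. Cdkn1a, the cyclin-dependent kinase inhibitor p21, was at 13.5 and 7.87 RPKM untreated and at 27.7 and 22.3 treated. The groups did not overlap, but the adjusted p was 0.0987 (log2 change 1.23 ± 0.31). Plk2, another damage-induced kinase, was at 120.4 and 63.7 RPKM untreated and at 445 and 212 treated (adjusted p = 0.132). Ccng1, cyclin G1, was at 82.7 and 76.9 against 122 and 121 RPKM (adjusted p = 0.165). Trp53 itself, whose control is mainly on its protein, was at 20.2 and 10.9 RPKM untreated and 15.5 and 13.9 treated, overlapping values.

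Among p53 targets of cell death, 3 of 12 tested members rose (25%, against 2% of all rows) and none fell, with a list median log2 change of 0.38. Eda2r, a death-inducing receptor of the tumour necrosis factor family, was at 8.53 and 8.44 RPKM untreated and at 29.1 and 27.4 treated (log2 change 1.68 ± 0.21, adjusted p = 0.0215). Bbc3, the BH3 protein PUMA, was at 2.07 and 2.60 RPKM and rose to 12.4 and 7.38 (log2 change 1.84 ± 0.26, adjusted p = 0.0271). Fas, the death receptor, rose from 1.72 and 1.45 to 20.2 and 7.35 RPKM (log2 change 2.62 ± 0.41, adjusted p = 0.0340). The treated replicates of Fas differed from each other more than those of the other genes, and both lay above the untreated ones. Bax, the pore-forming death effector, was at 113 and 117 RPKM untreated and 98.3 and 102 treated and was not called. Of the 3 calls, 0 were kept without either untreated library or without oxidative stress replicate 1, and 2 without oxidative stress replicate 2. The fits without a heat shock library kept 0.

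Of 31 tested NRF2 targets, 2 rose (6.45%, against 2% of all rows) and none fell, and the list median log2 change was 0.11, with 24 members above 0. Hmox1, heme oxygenase 1, was at 8.73 and 8.60 RPKM untreated and rose to 69.9 and 49.1, with wide separation of the groups (log2 change 2.69 ± 0.27, adjusted p = 0.0137). Slc7a11, the cystine importer that feeds glutathione synthesis, was at 0.521 and 1.48 RPKM and rose to 6.88 and 7.78 (log2 change 2.46 ± 0.42, adjusted p = 0.0395). Other members were not called: Nqo1, a quinone reductase, was at 24.6 and 13.7 RPKM untreated and 23.1 and 17.2 treated, and Gclm, the modifier subunit of glutamate-cysteine ligase, at 26.4 and 25.7 against 32.9 and 32.5 (adjusted p = 0.252). Srxn1, sulfiredoxin, was at 24.1 and 20.1 RPKM untreated and 36.5 and 30.1 treated, higher in both replicates but with an adjusted p of 0.167. Of the 2 calls, 0 were kept without either untreated library or without oxidative stress replicate 1. Without oxidative stress replicate 2, a heat shock library or an osmotic stress library, 1 was kept.

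The enzymes that remove peroxide and superoxide were not called. Of 25 tested constitutive scavengers, none passed in either direction, 21 lay below 0 and the median log2 change was -0.17. Over all rows 2.33% were called and the median was -0.11, so no call among 25 is near that share. The most abundant were Gpx4, which reduces lipid peroxides, at 159.7 and 186 RPKM untreated and 157 and 148 treated, and Prdx5, a peroxiredoxin, at 103 and 99.5 against 105 and 78.0. Cat, catalase, was at 16.0 and 10.4 RPKM untreated and 11.5 and 13.1 treated, overlapping values. Of the 21 tested sensors and regulators, such as Nfe2l2 (NRF2), Keap1, Hsf1 and Atf6, none was called. Their log2 changes ran from -0.44 for Keap1 to 0.64 for Nfe2l2, which was at 46.9 and 35.4 RPKM untreated and 56.8 and 72.0 treated.

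AP-1 genes encode the Jun and Fos families, which pair on DNA, and their small Maf relatives. Of 10 tested members 3 rose (30%, against 2% of all rows), 1 of them through the filter, none fell, and the list median log2 change was 1.27. Jun was at 12.7 and 9.32 RPKM untreated and at 68.7 and 39.3 treated (log2 change 2.21 ± 0.27, adjusted p = 0.0205). Fos rose from 0.331 and 0.410 to 5.62 and 4.29 RPKM, a low level throughout, and entered through its oxidative stress values (log2 change 2.64 ± 0.35, adjusted p = 0.0250). Maff, a small Maf protein that can pair with NRF2, rose from 7.79 and 7.54 to 24.6 and 14.9 RPKM (log2 change 1.27 ± 0.23, adjusted p = 0.0487). Of these 3 calls, 0 were kept without either untreated library or without oxidative stress replicate 1, and 2 without oxidative stress replicate 2. Without a heat shock library 1 was kept, and without an osmotic stress library 2. Junb, another Jun family member, was at 24.9 and 20.4 RPKM untreated and at 96.3 and 32.7 treated, and was not called.

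Most EGR, KLF, IER and NR4A early genes lay above 0: 17 of 21 did so, and the median log2 change was 0.77. Egr1, a zinc finger factor of the early response, was at 0.488 and 0.474 RPKM untreated and 2.77 and 2.09 treated (adjusted p = 0.130). Of 15 tested genes of MAPK feedback 1 rose (6.67%, against 2% of all rows), Dusp1, a phosphatase that inactivates stress kinases. A single call exceeds that share in any list this short. Dusp1 went from 2.83 and 2.86 to 9.11 and 5.91 RPKM (log2 change 1.23 ± 0.21, adjusted p = 0.0387). The call of Dusp1 was kept without oxidative stress replicate 2 and lost when any of the other libraries was left out.

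Ereg, epiregulin, a ligand of the EGF receptor, was at 6.90 and 9.32 RPKM untreated and at 58.0 and 54.3 treated (log2 change 2.73 ± 0.17, adjusted p = 0.00220). Both treated libraries lay far above both untreated ones. Of the 357 calls, 7 were called again in each of the 8 fits on 7 libraries, and Ereg was the only protein-coding gene among them, with log2 changes between 2.53 and 2.94. The row 1810011O10Rik also had one of the largest rises, from 4.17 and 5.31 to 64.2 and 36.1 RPKM (log2 change 3.22 ± 0.36, adjusted p = 0.0166), a call lost without either untreated library or oxidative stress replicate 1. Of the EGF family, Hbegf, a relative of Ereg, was at 13.7 and 8.56 RPKM untreated and 20.8 and 7.27 treated, overlapping values.

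Among 26 tested targets of the integrated stress response, 5 rose (19.2%, against 2% of all rows) and none fell, with a median log2 change of 0.40. Gdf15, a secreted cytokine of the TGF-beta superfamily that p53 and Atf4 both induce, had the largest rise of the named protein-coding genes. It was at 0.550 and 0.391 RPKM untreated and at 20.6 and 10.7 treated (log2 change 3.99 ± 0.32, adjusted p = 0.00795). Ppp1r15a, the phosphatase subunit that reverses eIF2 phosphorylation, rose from 6.57 and 7.29 to 30.5 and 25.3 RPKM (log2 change 1.93 ± 0.22, adjusted p = 0.0187). Ddit4, an inhibitor of mTORC1, rose from 4.80 and 8.71 to 17.6 and 20.4 RPKM (log2 change 1.48 ± 0.26, adjusted p = 0.0415). The other called members were Sesn2 and Slc7a11, which also stand on lists above. Of the 5 calls, 0 were kept without either untreated library, 1 without oxidative stress replicate 1 and 3 without oxidative stress replicate 2. Leaving out a heat shock library kept 2, and without an osmotic stress library 3. Of the members that were not called, Asns, asparagine synthetase, was at 110.1 and 123 RPKM untreated and 107 and 144 treated, and Trib3, a pseudokinase, at 7.71 and 15.4 against 28.7 and 43.0 (adjusted p = 0.119). Atf4 was at 175 and 146 RPKM untreated and 177 and 182 treated and was not called.

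Among NF-kB and inflammatory targets, several members differed between the oxidative stress replicates. Of 19 tested members 3 rose (15.8%, against 2% of all rows) and none fell, and the median log2 change was 0.78. Ptgs2, cyclooxygenase 2, was high in both treated libraries, at 129 and 94.6 RPKM against 26.3 and 25.7 untreated (log2 change 2.06 ± 0.22, adjusted p = 0.0147). Lif, a cytokine of the interleukin 6 family, rose from 4.47 and 2.78 to 17.3 and 9.87 RPKM (log2 change 1.75 ± 0.33, adjusted p = 0.0494). Cxcl10, an interferon-induced chemokine, rose from 0.889 and 0.459 to 10.4 and 3.94 RPKM (log2 change 2.59 ± 0.46, adjusted p = 0.0442). The feedback inhibitors were high in oxidative stress replicate 1 and much less so in replicate 2. Tnfaip3, the deubiquitinase A20, was at 4.61 and 1.63 RPKM untreated and 53.2 and 4.09 treated, and Nfkbia, the inhibitor IkB alpha, at 21.4 and 14.7 against 107 and 28.6. Cxcl1, a neutrophil chemokine, was at 10.7 and 11.5 RPKM untreated and at 79.2 and 19.6 treated. None of the 3 was called, and the part of the library in their values was not tested. Without oxidative stress replicate 2 the list held 6 calls and a median of 1.44, and without oxidative stress replicate 1 it held 0 and a median of 0.48. Without either untreated library 0 of the 3 calls were kept. Without a library of heat shock or osmotic stress 1 was kept.

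Of some further lists a single member rose. That is 4.76% of the hypoxia and glycolysis list, 2.86% of the repair list and 9.09% of the TGF-beta feedback list below. Over all rows 2% were called higher. The share of the repair list is near that background, and a single call exceeds it in any list this short. Vegfa, the endothelial growth factor, rose from 25.7 and 30.2 to 59.7 and 66.9 RPKM (log2 change 1.17 ± 0.17, adjusted p = 0.0278), while the other 20 tested genes of hypoxia and glycolysis were not called and the list median log2 change was -0.33. Rdm1, a RAD52-related repair protein, rose from 12.01 and 9.10 to 51.9 and 27.7 RPKM (log2 change 1.81 ± 0.30, adjusted p = 0.0372), 1 of 35 tested genes of base excision and strand break repair. Tgif1, a homeodomain repressor of TGF-beta signalling, rose from 15.7 and 12.9 to 25.4 and 28.5 RPKM (log2 change 0.89 ± 0.16, adjusted p = 0.0416), 1 of 11 tested. None of these calls was kept without an untreated library, a heat shock library or oxidative stress replicate 1. Without oxidative stress replicate 2 that of Rdm1 was kept, and without an osmotic stress library that of Vegfa. The metallothioneins Mt1 and Mt2, which bind zinc, and the zinc exporter Slc30a1 were higher in both treated libraries without a call: Mt1 was at 117 and 69.7 RPKM untreated and 182 and 155 treated (adjusted p = 0.159).

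**Figure D2:**
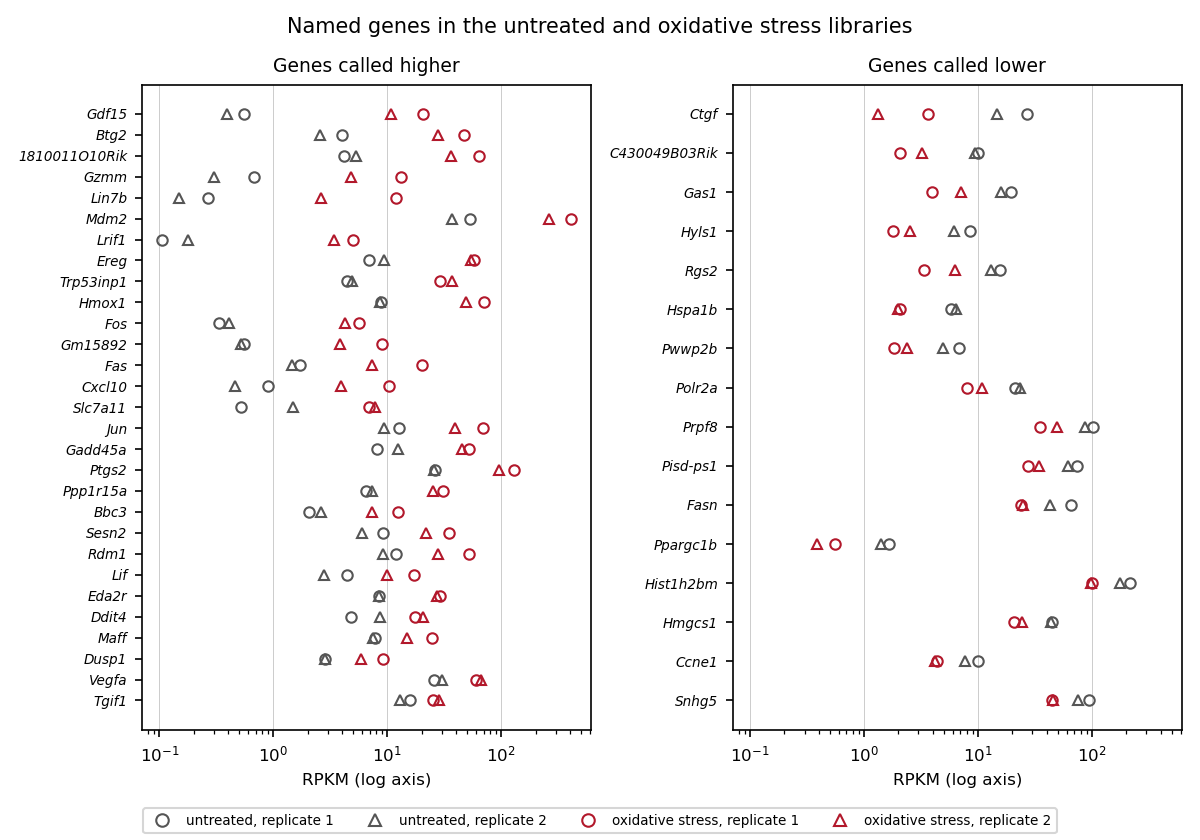
RPKM (log axis) of the named genes called higher (left) and lower (right) in each untreated (grey) and oxidative stress (red) library; circles are replicate 1 and triangles replicate 2. Genes listed at 0 in a library and 3 further genes, Pecam1 and Cdh1 among them, are not drawn, and in every gene drawn both red points lie on the same side of both grey points.

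Falls were fewer and smaller. Ctgf, a matricellular protein and target of the coactivator YAP, was at 27.2 and 14.5 RPKM untreated and at 3.64 and 1.32 treated, the largest fall among the named protein-coding genes (log2 change -2.89 ± 0.50, adjusted p = 0.0409). It was the only YAP target of 10 tested to be called, 10% against 0.333% of all rows called lower. A single call exceeds that share in any list this short. Of the 10, 9 lay below 0. Cyr61, a relative of Ctgf, was at 36.1 and 13.1 RPKM untreated and 25.6 and 11.3 treated, overlapping values. Gas1, a growth arrest protein of the cell surface, was at 19.5 and 16.0 RPKM untreated and 3.97 and 7.02 treated (log2 change -1.65 ± 0.27, adjusted p = 0.0371). Rgs2, a regulator of G protein signalling, fell from 15.5 and 12.96 to 3.35 and 6.29 RPKM (log2 change -1.52 ± 0.27, adjusted p = 0.0432). Polr2a, the largest subunit of RNA polymerase II, fell from 21.2 and 23.5 to 7.94 and 10.9 RPKM (log2 change -1.22 ± 0.22, adjusted p = 0.0463). Prpf8, a core protein of the spliceosome, fell from 102 and 86.7 to 35.2 and 49.3 RPKM (log2 change -1.16 ± 0.20, adjusted p = 0.0390). Fasn, fatty acid synthase, fell from 65.6 and 42.7 to 23.9 and 24.8 RPKM (log2 change -1.11 ± 0.20, adjusted p = 0.0466). Lower-expressed or less known genes were also among the 15 largest falls. C430049B03Rik fell from 9.95 and 9.41 to 2.07 and 3.25 RPKM, Hyls1, a centriole protein, from 8.46 and 6.18 to 1.80 and 2.54, and Pwwp2b from 6.81 and 4.95 to 1.82 and 2.38. Pisd-ps1, a pseudogene that may share reads with its parent gene, fell from 73.8 and 61.5 to 27.6 and 34.5 RPKM, and Ppargc1b, a coactivator of mitochondrial genes, from 1.66 and 1.40 to 0.559 and 0.389. Their log2 changes ran from -1.71 for C430049B03Rik to -1.06 for Ppargc1b, with limma adjusted p from 0.0215 to 0.0487. The 51 called falls also hold mt-Tc, Snord110 and Tcf9, given below, whose falls follow from the filter. The calls of mt-Tc and Snord110 are among those kept in every fit that follows. Of the 51 called falls, 5 were kept without untreated replicate 1, 3 without untreated replicate 2, 3 without oxidative stress replicate 1 and 14 without oxidative stress replicate 2. Without a heat shock library 5 were kept, and without an osmotic stress library 23 or 21.

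No heat shock chaperone was called higher, which for 22 genes is near the 2% of all rows called higher. Of 22 tested members 1 was called and it fell (4.55%, against 0.333% of all rows). A single call exceeds that share in any list this short. Hspa1b, an inducible HSP70, was at 5.85 and 6.41 RPKM untreated and 2.08 and 1.98 treated (log2 change -1.39 ± 0.17, adjusted p = 0.0205). It was at 535 and 457 RPKM in the heat shock libraries. Hspa8, the constitutive HSP70, was at 193 and 152 RPKM untreated and 99.8 and 89.3 treated (adjusted p = 0.0876). Of 20 tested endoplasmic reticulum chaperones none was called, and Hspa5, the HSP70 of that compartment, was at 535 and 772 RPKM untreated and 729 and 896 treated. The call of Hspa1b was kept without an osmotic stress library and lost without any other library.

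Genes of growth lay low as groups, with few calls. The single called falls below are 3.7% of the replication list, 1.54% of the histone list and 4.35% of the cholesterol list. Over all rows 0.333% were called lower, and 1 call exceeds that share in any list this short. All 27 tested genes of DNA replication had log2 changes below 0 (median -0.41), and 1 was called: Ccne1, cyclin E1, which fell from 9.92 and 7.64 to 4.39 and 4.19 RPKM (log2 change -0.95 ± 0.17, adjusted p = 0.0480). Of 25 genes of mitosis 24 lay below 0 (median -0.57) and none was called; Top2a, topoisomerase II alpha, was at 230.4 and 199.6 RPKM untreated and 133 and 125 treated. Of 65 tested replication-dependent histone rows 62 lay below 0 (median -0.89). Hist1h2bm was called, at 216 and 175 RPKM untreated and 101 and 97.6 treated (log2 change -0.97 ± 0.17, adjusted p = 0.0442); near-identical histone copies may share reads, so single rows are uncertain. Of 23 genes of cholesterol synthesis and uptake 21 lay below 0 (median -0.48), and Hmgcs1, HMG-CoA synthase, fell from 45.0 and 43.3 to 20.7 and 24.4 RPKM (log2 change -0.96 ± 0.14, adjusted p = 0.0278), and so did another row of that name. These medians stayed below the median of all rows under each of 3 other scalings. Without any 1 of the 8 libraries the calls of Ccne1 and Hist1h2bm were lost. The call of Hmgcs1 was kept without oxidative stress replicate 2 or an osmotic stress library only. The 77 tested cytosolic ribosomal protein genes had a median log2 change of -0.01 and no call. In bulk RNA, fewer cells of a type and less RNA per cell cannot be told apart.

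**Figure D3:**
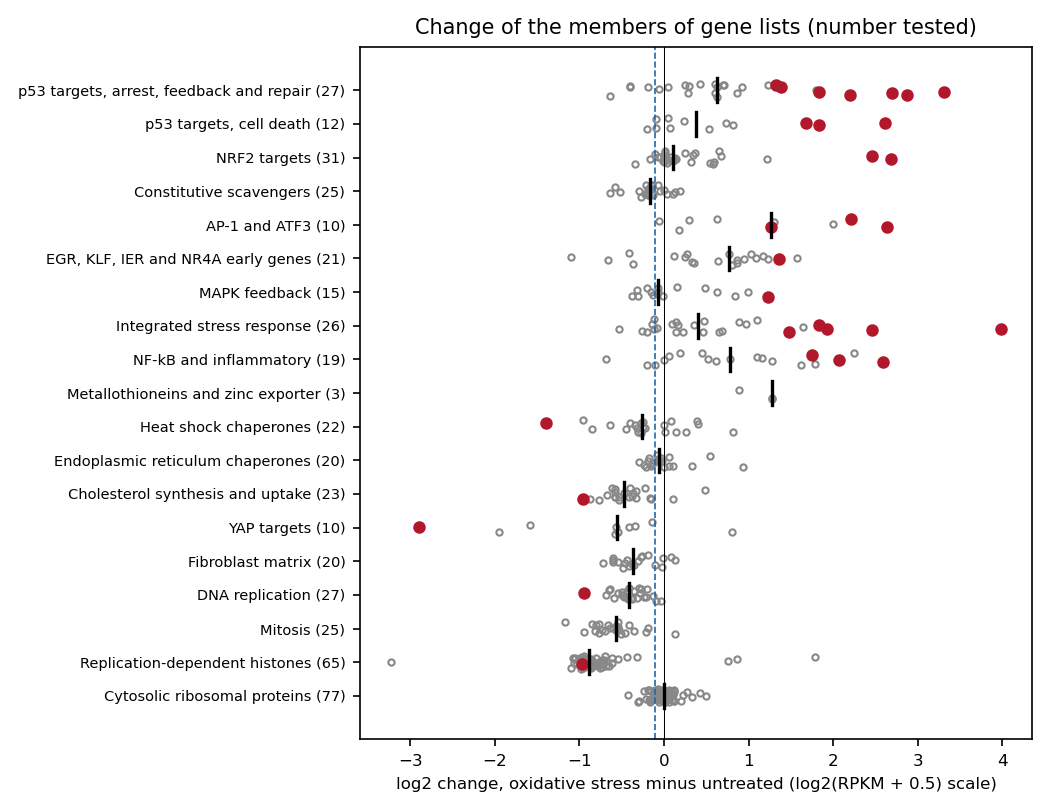
Log2 change (oxidative stress minus untreated, log2(RPKM + 0.5) scale) of each tested member of 19 gene lists, with the number tested in brackets; red points were called, the black bar is the list median and the dashed line the median of all rows, -0.11. The p53 and AP-1 lists reach far to the right, and the histone list, with a median of -0.89, runs from -3.23 to 1.79.

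The same fit gave oxidative stress against each other stress. The untreated values are not part of these differences, but they enter the filter and the shared spread. Oxidative stress differed from heat shock on 2261 rows (14.8%) and from osmotic stress on 3238 (21.1%). These comparisons share the oxidative stress libraries with the one above, so the genes are set side by side. Mdm2 was at 50.2 and 45.9 RPKM under heat shock and 62.4 and 39.6 under osmotic stress, near its untreated level, and oxidative stress exceeded heat shock by 2.76 ± 0.31 (adjusted p = 0.00768) and osmotic stress by 2.71 ± 0.31 (adjusted p = 0.0107) on the log2 scale. Gdf15 (1.85 and 1.28 under heat shock, 0.451 and 0.529 under osmotic stress) and Ereg (11.3 and 12.2, then 12.8 and 11.8) were likewise highest under oxidative stress, with adjusted p at or below 0.00703 in each of the 4 comparisons. Hmox1 was at 20.8 and 15.6 RPKM under heat shock, between its untreated and oxidative stress levels.

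Other rises were shared in level with another stress. Fos was at 2.53 and 1.26 RPKM under heat shock and 5.97 and 3.24 under osmotic stress, and oxidative stress exceeded osmotic stress by 0.14 ± 0.35 (adjusted p = 0.787). Ddit4 was at 19.9 and 17.9 RPKM under heat shock and 16.9 and 18.2 under osmotic stress, and oxidative stress exceeded heat shock by 0.01 ± 0.26 (adjusted p = 0.990). Dusp1 was lower than under heat shock, where it was at 34.7 and 31.0 RPKM (difference -2.08 ± 0.21, adjusted p = 0.00549). Jun was at 91.0 and 89.6 RPKM under heat shock (difference -0.79 ± 0.27, adjusted p = 0.0957). Polr2a and Prpf8 were low under heat shock too: Polr2a was at 7.42 and 9.42 RPKM (difference 0.15 ± 0.22, adjusted p = 0.681) and Prpf8 at 38.6 and 40.6. Of the 15 largest rises and 15 largest falls, 23 differed from heat shock and 24 from osmotic stress. Over all rows the shares were 14.8% and 21.1%. These genes were picked by their oxidative stress values, which both comparisons share, so the 23 and 24 are only a description. Without oxidative stress replicate 1 these counts were 12 and 4, without heat shock replicate 1 or 2 the count against heat shock was 7 or 8, and without osmotic stress replicate 1 that against osmotic stress was 8.

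Some low rises lay behind an expressed gene. Genes were placed by name on GENCODE M21, in GRCm38, where 23427 had a single row and a single place; the tables were made on mm9, so neighbours and distances are those of GRCm38. Of 150 placed rises from under 1 RPKM untreated, 51 (34%) had a gene of at least 5 RPKM untreated that ended within 10 kb upstream on the same strand, against 172 of 1087 members at that level (15.8%). Many of these rows entered through their oxidative stress values, so both shares are a description. Among rows with both untreated libraries at 0.5 RPKM or more, a subset chosen after the data were seen, the counts were 7 of 14 rises and 51 of 463 members. Gzmm, a granzyme of lymphocytes, lies behind Cdc34, and was at 0.677 and 0.302 RPKM untreated and 13.3 and 4.79 treated (log2 change 3.14 ± 0.45, adjusted p = 0.0275). Lin7b, a polarity protein of neurons and epithelia, lies behind Snrnp70, entered through its oxidative stress values, and was at 0.267 and 0.150 RPKM untreated and 11.8 and 2.63 treated (log2 change 3.14 ± 0.59, adjusted p = 0.0494). Gm15892 lies behind Srsf1, and rose from 0.551 and 0.522 to 8.99 and 3.86 RPKM (log2 change 2.63 ± 0.36, adjusted p = 0.0261). In these 3 genes oxidative stress replicate 1 was the higher and both treated libraries exceeded both untreated ones. None of the 51 upstream genes was called in either direction, which is near the 2.33% of all rows that were called. Of these 51, 15 lay above 0, against 5661 of all 15314 rows. Their median log2 change was -0.118, close to the -0.11 of all rows. Of the 225 called rises from under 1 RPKM, 7 and 3 were kept without untreated replicate 1 or 2, 14 without oxidative stress replicate 1 and 152 without oxidative stress replicate 2. Without a heat shock library 30 were kept, and without an osmotic stress library 124 or 119.

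Silent genes were also counted library by library. Of the placed genes, 13300 were under 0.5 RPKM in untreated replicate 1, and the share of them at 0.5 RPKM or more was read in the other 7 libraries. Of 549 such silent genes behind an expressed gene, 3.28% reached that level in untreated replicate 2, 34.6% and 21.5% under oxidative stress, 8.01% and 10.6% under heat shock and 11.7% and 11.1% under osmotic stress. Both oxidative stress libraries lay above the 5 others, and replicate 1 above replicate 2. With 2 libraries a side an exact permutation test cannot give a two-sided p below 0.333. Of 10368 silent genes with no expressed gene within 10 kb, 1.13% reached it in untreated replicate 2 and 3.25% and 2.72% under oxidative stress. With the expressed gene upstream on the opposite strand the shares were 2.14%, 15.9% and 13.1% in the same order. With it downstream on the same strand they were 2.25%, 7.75% and 5.75%, and downstream on the opposite strand 1.40%, 6.07% and 3.89%. The 1013 silent genes that overlap an expressed gene were set apart, with shares of 1.58%, 12.2% and 8.59%. A gene with expressed genes in several places was counted under upstream on the same strand first. All stress libraries listed fewer of all rows at 0 than the untreated libraries, which listed 24954 and 25085. The counts were 21008 and 22397 under oxidative stress, 23031 and 23535 under heat shock and 23227 and 23293 under osmotic stress. Which strand the authors counted is not given in the sources used here, and the part of the RNA of the upstream gene in these values was not tested.

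The share fell with distance. Silent genes whose nearest expressed gene upstream on the same strand ended within 2 kb reached 0.5 RPKM in 36.8% and 27.9% of cases under oxidative stress, and those at 2 to 5 kb in 38.3% and 22.2%. At 10 to 20 kb the shares were 18.1% and 10.2%, and at 50 to 100 kb 6.32% and 4.04%. Untreated replicate 2 stayed between 1.31% and 4.94% over these distances. The shares of the other stresses also fell with distance: within 2 kb they were 13.2% and 14.7% under heat shock and 16.2% and 14.0% under osmotic stress, and at 50 to 100 kb 1.87% and 2.38%, then 2.38% and 1.87%. Both oxidative stress libraries lay above the 5 other libraries in each of the 6 distance ranges.

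**Figure D4:**
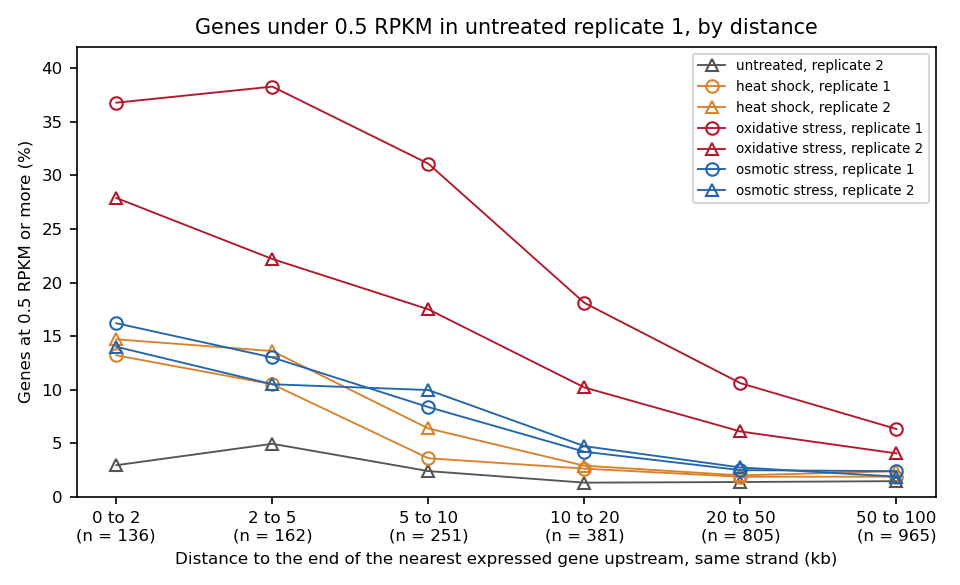
Percent of genes under 0.5 RPKM in untreated replicate 1 that reached 0.5 RPKM in each other library, by distance (kb) from the end of the nearest gene of at least 5 RPKM upstream on the same strand; circles are replicate 1 and triangles replicate 2. The oxidative stress lines begin at 36.8% and 27.9%, the first reaches 38.3% at 2 to 5 kb, and they end at 6.32% and 4.04%, above the other libraries throughout.

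The lists of genes that end, elongate or splice transcripts held no call. Over all rows 2.33% were called, so lists this short would hold few calls or none. Polr2a and Prpf8, which were called lower, are not on these lists. Of 34 tested genes of cleavage, termination and Integrator none passed, 28 lay below 0 and the median log2 change was -0.21. Xrn2, the exonuclease that acts in termination, was at 71.5 and 86.0 RPKM untreated and 66.3 and 81.0 treated, and Ssu72, a phosphatase of the polymerase tail, at 31.8 and 26.5 against 35.1 and 29.7. In both genes the values of the groups overlapped. Of 18 tested genes of P-TEFb and elongation control and 16 SR factors and CLK kinases none was called, with medians of -0.05 and -0.09. Among 14 tested long nuclear RNAs and hosts of small nucleolar RNAs 1 was called, 7.14% against 0.333% of all rows called lower. A single call exceeds that share in any list this short. Snhg5 fell from 94.2 and 75.4 to 44.6 and 45.2 RPKM (log2 change -0.90 ± 0.15, adjusted p = 0.0371), a call lost without any 1 of the 8 libraries.

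Markers of other lineages were mostly at or near 0, and some were higher under oxidative stress. Of 33 markers of endothelial, haematopoietic, epithelial, muscle and neural cells, 12 had both oxidative stress values above both untreated ones, 3 had both below and 5 were listed at 0 in all 4 libraries. The 3 were 1 haematopoietic, 1 epithelial and 1 neural marker. Only 8 of the 33 reached the filter. Over all rows that reached it, 17.7% had both oxidative stress values above and 31% had both below. No such share was taken for rows under the filter, so whether 12 against 3 is unusual there was not tested. Pecam1, an endothelial adhesion protein, was at 0.0337 and 0.0167 RPKM untreated and at 0.887 and 0.515 treated, and Cdh1, the epithelial cadherin, at 0.0236 and 0.0235 against 1.01 and 0.663. Both were called, but both entered through their oxidative stress values alone, as did Tubb3, a neuronal tubulin, which was at 0 and 0.0101 RPKM untreated and 1.99 and 0.521 treated and was not called. Beside Cdh1, the other tested epithelial marker had a log2 change of -0.46 and was not called. Vwf, the endothelial clotting factor, was at 0.612 and 0.649 RPKM untreated and 1.55 and 1.53 treated (log2 change 0.85, adjusted p = 0.0542).

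Other defining markers were lower still. Kdr was listed at 0 untreated and at 0.0339 and 0.0427 RPKM treated, and Krt5 of epithelia, Myod1 of muscle, Map2 of neurons and Cd3e of T cells were listed at 0 in all 4 libraries. The summed level of the 6 endothelial markers was 1.26 and 1.03 RPKM untreated and 2.80 and 2.61 treated, that of the 7 epithelial markers 1.12 and 1.37 against 2.60 and 1.83, and that of the 6 neural markers 0.131 and 0.160 against 2.49 and 0.648. Muscle markers summed to 4.72 and 3.75 against 6.23 and 4.33 RPKM, and haematopoietic markers to 30.6 and 19.9 against 26.7 and 27.7. The part of other cells in the results was not tested.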

How the data were processed

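The samples are 8 libraries of nuclear-enriched RNA, 2 per group. Per the labels' protocols, nuclei were pelleted through sucrose, RNA was treated with DNase and strand-specific libraries were sequenced on an Illumina instrument. The genome build was mm9 and the tools named are Bowtie, Cufflinks and SAMtools, per the submitters' processing notes. The annotation, tool versions and filters are unknown, since the sources used here do not give them. The authors deposited RPKM per gene row, per the file headers, in 2 tables of 1 library per group; 0 columns were left unmatched.

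The members and gene lists were chosen with earlier results of these data known. Values were used as deposited. On log2(RPKM + 0.5), 1 model of the 4 groups over all 8 libraries was fitted with limma 3.58.1 in R 4.3.3; moderation was by empirical Bayes, let the prior variance follow the mean, and had 2.82 prior and 4 residual degrees of freedom. Tests were two-sided, with Benjamini-Hochberg adjustment over the 15314 rows, and called at an adjusted p under 0.05. The steps were tested on simulated data. An exact permutation test of 2 against 2 cannot go below 0.333.

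Named were the 15 largest rises and 15 largest falls among called rows with a unique name, a reference match, a mean of at least 1 RPKM, the same direction in both tables and no 0 beside at least 5 RPKM; up to 5 called rises and 5 falls per list; and, as values only, abundant members of lists with fewer calls. Further uncalled members are given as values and were chosen after they were seen. Of the genes chosen by the rule, 1 is not reported here. An exact 0 can be a failed estimate. Of the rows, 12550 matched a reference gene by symbol, 1356 by synonym and 1408 none. Neighbours come from GENCODE M21 and promoters from RefSeq GRCm38.p6, read with Python and pandas. Alternatives were other pseudocounts, filters, scalings, library sets, a replicate term, no mean trend and single libraries left out.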

Additional observations from a re-analysis of the deposited data

How the results depend on the processing

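The count of 357 called rows (306 higher, 51 lower) moved with many settings, and the cause was not tested except where fewer libraries or rows entered. Requiring 1 RPKM gave 154 (129 and 25), and requiring 0.5 RPKM in 2 of all 8 libraries gave 31 lower among 238. Median-of-ratios scaling gave 557 (489 higher), with 353 of the calls shared. The 4 compared libraries alone gave 52 (45 and 7), and leaving out osmotic stress gave 212 (180 and 32). A replicate block on the replicate number, which is also the deposited table, gave 776 (528 and 248), including all 357; by list, called rises went from 7 to 12 for p53 arrest, feedback and repair and from 2 to 4 for NRF2 targets, and called falls from 1 to 28 for histones. Replicate differences of the groups correlated by 0.0901 to 0.314 (0.159 between untreated and oxidative stress), and the labels name no shared culture or day, so the numbers are taken only as numbers. With 1 library left out, the counts ran from 12 to 312 in all, from 9 to 285 higher and from 3 to 33 lower; 7 calls held in all 8 such fits and 94 in none. With no filter 429 were called, of which 102 shared. Columns scaled to a common sum, which osmotic stress replicate 1 weighs on, called 452 with 237 shared, and quantile normalization 286 with 212 shared. The share of called rows that were higher was 85.7% and ran from 68% with the replicate block to 91.3% without oxidative stress replicate 2.

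Of the 30 largest rises and falls, 23 differed from heat shock and 24 from osmotic stress. Over all rows the shares were 14.8% and 21.1%. These genes were picked by their oxidative stress values, which both comparisons share, so the 23 and 24 are only a description. With no filter both counts were 13. With 1 library left out they ran from 7 to 24 and from 4 to 22. The mean share of silent genes behind an expressed gene that reached the silence threshold under oxidative stress was 28.1%, and 39.4% with the threshold at 0.25 RPKM and 15.9% at 1 RPKM; windows of 5 and 20 kb, other levels of the upstream gene and the other untreated library gave 22.4% to 32.4%. These settings were chosen after seeing the data. Of the 53 called genes that the naming rule chose, none reversed under any setting. Leaving out a library could not reverse a gene whose treated values both lie on one side of both untreated ones. With 2 libraries a group, depth unknown and many zeros, small changes are not resolved.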

Other observations

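Rows of small RNAs gave the steepest contrasts and are listed as values only. Scarna9, a small RNA that guides modification of spliceosomal RNA, reached 55.7 and 52.0 RPKM under oxidative stress and was listed at 0 in the 6 other libraries. Snord14d was listed at 0 untreated and at 23.5 and 6.17 RPKM under oxidative stress. Snord110 was at 265 and 122 RPKM untreated and listed at 0 in all 6 stress libraries. mt-Tc, the mitochondrial cysteine transfer RNA, was at 315 and 434 RPKM untreated and 467 and 409 under heat shock, and listed at 0 under oxidative and osmotic stress. Both libraries of a group gave the same picture in each of these rows. In the untreated and oxidative stress groups this follows from the naming rule, which left out rows with a 0 beside at least 5 RPKM. Snord70, which was not called, was listed at 0 untreated and at 12.7 and 6.29 RPKM under oxidative stress. It was at 458 and 0 RPKM under osmotic stress.

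Tcf9 was at 2.56 and 1.54 RPKM untreated and listed at or near 0 in both oxidative stress libraries, and it was at 0 and 0.0240 RPKM under heat shock. Lrif1, a nuclear receptor interacting protein, was at 0.106 and 0.178 RPKM untreated and at 4.98 and 3.38 under oxidative stress, against at most 0.200 in the 4 other stress libraries. Trp53inp1 was at 4.78 and 6.85 RPKM under heat shock and 7.62 and 6.32 under osmotic stress. Rdm1 was lower than untreated under heat shock, at 2.80 and 3.20 RPKM, and under osmotic stress, at 6.54 and 7.23.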
